A study of Branchiostoma lanceolatum with 24 samples.

Results

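A set of 130 transcript contigs of the European amphioxus, Branchiostoma lanceolatum, increased strongly in control embryos between 8 and 14 hours post fertilization (hpf) and reached at most 0.5 times that level in embryos exposed to SU5402. SU5402 is an inhibitor of the kinase activity of fibroblast growth factor (FGF) receptors. The 130 contigs were chosen from 96094 in the deposited table of read counts. Counts were divided by the library's total to give counts per 1000000 reads (CPM). A contig was a member if its mean CPM in control embryos at 14 hpf was at least 10 and at least 4 times the mean at 8 hpf, if the higher SU5402 library at 14 hpf was at most 0.5 times the lower control library, and if the SU5402 mean at 8 hpf was at least 0.8 times the control mean. The level and rise conditions were met by 2022 contigs, of which 203, or 10.0%, also met the condition on SU5402 at 14 hpf, and 73 of these were left out by the condition at 8 hpf. The remaining 1819 contigs, which met the level and rise conditions without the condition on SU5402 at 14 hpf, are called the other risers below.

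RNA-seq was made from mixed whole embryos grown in filtered sea water in Petri dishes. Exposed embryos received 50 µM SU5402 and the controls 0.1% DMSO, the usual solvent of the inhibitor. The early series was exposed from 5 hpf on and sampled at 8, 11 and 14 hpf. The late series was exposed from 15.5 hpf on and sampled at 18.5, 21.5 and 24.5 hpf. Each series therefore holds exposures of 3, 6 and 9 h, and each of the 12 groups holds 2 libraries. Whether both libraries of a group stem from different spawnings or dishes is not in the labels. The p-values below therefore rest on a spread between libraries that could be purely technical.

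FGFs are secreted ligands that bind receptor tyrosine kinases on the cell surface. The bound receptors signal mainly through Ras and the MAP kinase ERK to transcription factors of the ETS family, and feedback inhibitors such as Sprouty proteins and dual-specificity phosphatases are typical targets. In chordate embryos the pathway acts in gastrulation, in mesoderm formation and in the patterning of neural tissue, and in amphioxus it is known for its role in the formation of the anterior somites. SU5402 can also act on other receptor tyrosine kinases, such as those of vascular endothelial growth factor.

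The contigs carry identifiers made of a prefix and a number. The RefSeq gene table used here, for assembly klBraLanc5.hap2, matched 0 of them, so the members are given by identifier, and neither gene functions nor sequences are reported. Several contigs can belong to 1 gene, and near-identical gene copies can share reads. Tissue or pathway markers were for the same reason not read. In RNA of whole embryos, fewer cells of a type and less RNA per cell cannot be told apart.

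Library totals ran from 10866511 to 39988564 reads, and the 8 libraries of 6 h exposure were the shallowest. At 8 hpf many members were close to the limit of detection: 34 of the 130 had under 10 reads in at least 1 DMSO library, and 6 had 0 reads in one. All 130 members passed the filter on low counts in the fits of the 12 early, the 12 late and all 24 libraries. The filter can be passed on the counts of 1 group, and the rule's level condition already set a minimum in an early DMSO group. Passing the early or the 24-library filter is therefore no evidence of adequate counts at 8 or 11 hpf. In a fit of only the 4 libraries of 11 hpf, 116 of the 130 members passed. Replicates of the early series lay farther apart than those of the late series, with a biological coefficient of variation of 27.2% in a fit of the 12 early libraries and 6.83% in a fit of the 12 late libraries.

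A group of 8 members did not have comparable values in the 2 libraries of several groups. They were singled out after their values were seen, as those whose replicates differed by more than 3-fold in any group with 0.5 CPM added: ContigAmph15339, ContigAmph177, ContigAmph19407, ContigAmph20391, ContigAmph20542, ContigAmph69172, ContigAmph78203 and ContigAmph94240. ContigAmph177 had 1.06 and 43.9 CPM in the SU5402 libraries at 11 hpf, and 126 and 22.3 CPM in the DMSO libraries at 14 hpf. In the SU5402 libraries at 21.5 hpf it had 167 and 4.3 CPM. The 8 members were high in the same library in each of these 3 groups. Their summed level was 5.39 and 209 CPM in SU5402 embryos at 11 hpf, 566 and 69.6 CPM in DMSO embryos at 14 hpf, and 544 and 10.1 CPM in SU5402 embryos at 21.5 hpf. It was also high in DMSO embryos at 18.5 hpf, at 269 and 122 CPM. Across the table, a total of 27 contigs, these 8 included, lay apart in the same way in all 3 groups. The largest difference between replicates of the other 122 members was 2.76-fold. What sets these libraries apart was not tested, and counts that rest on the 8 members are given with and without them.

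The rule fixed that the members were low in SU5402 embryos at 14 hpf, and the values of the 8 libraries it used are given as a description. The median over members of the mean level at 14 hpf was 6.47 CPM in SU5402 embryos and 22.5 CPM in DMSO embryos. At 8 hpf it was 1.25 CPM in SU5402 embryos and 0.900 CPM in DMSO embryos. The ratio of SU5402 to DMSO at 14 hpf had a median of 0.301 and ran from 0.0391 to 0.476. In DMSO embryos the ratio of the 14 hpf to the 8 hpf level had a median of 34.8, with a range of 4.14 to 1614, whose upper end rests on very few reads at 8 hpf. Together the members took 0.189% and 0.208% of the reads of the SU5402 libraries at 14 hpf, against 0.638% and 0.584% of those of the DMSO libraries.

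**Figure D1:**
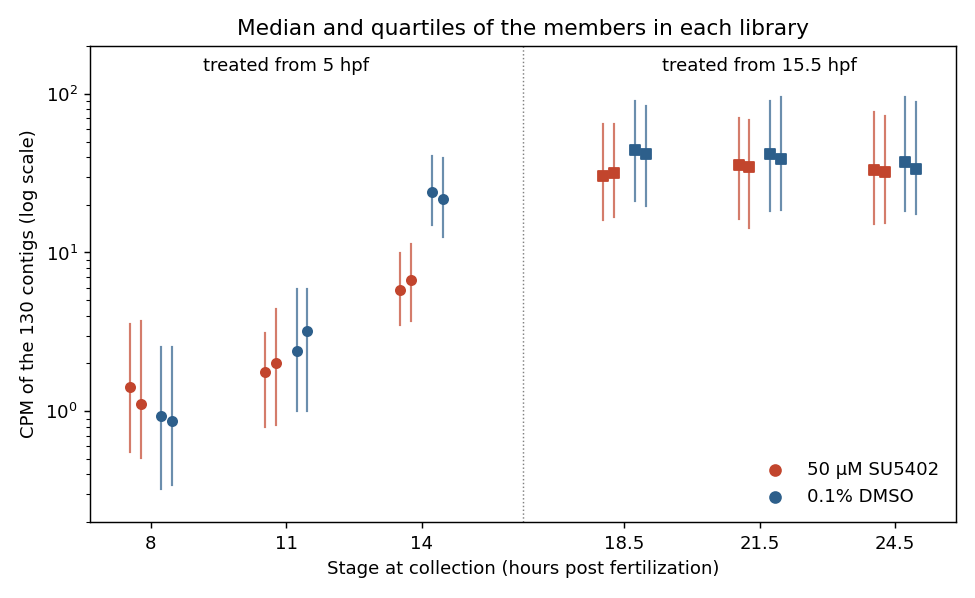
Median (points) and quartiles (lines) of the CPM of the 130 contigs in each library, on a log axis, by hours post fertilization, with SU5402 libraries left of DMSO libraries at each stage. The SU5402 and DMSO medians lie close together at 8 hpf and apart at 14 hpf, where the rule set them apart, and both are higher in the late series, in which exposure began at 15.5 hpf.

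The working name of the set says that its rise was blocked, and for most members this was not so. In SU5402 embryos 93 of the 130 members were at 2 times their 8 hpf level or more by 14 hpf, 23 were between 1 and 2 times, and 14 were below it. The median ratio of 14 to 8 hpf in SU5402 embryos was 4.05. Expressed as a share of the increase in DMSO embryos, the increase in SU5402 embryos had a median of 21.7% and ran from -46.1% to 47.4%. The SU5402 level at 14 hpf was above the DMSO level at 11 hpf in 117 members, and in 3 it was at or below the DMSO level at 8 hpf. The rise was therefore smaller in SU5402 embryos in all members, as the rule required, and absent in a minority. At 8 hpf the SU5402 mean was above the DMSO mean in 105 members and at least 2 times it in 31. The rule excluded only members under 0.8 times at that stage, so the count of 105 is shaped by it.

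The members differed in how much they rose. ContigAmph8334 had the highest DMSO level at 14 hpf, with 210 and 271 CPM in SU5402 libraries and 724 and 644 CPM in DMSO libraries. At 8 hpf it had 1.5 and 1.45 CPM in SU5402 libraries and 1.18 and 1.10 CPM in DMSO libraries. It increased in both kinds of embryo, and its 14 hpf groups lay apart, as the rule required of every member. ContigAmph8342, with the next highest level, had 204 and 194 CPM in SU5402 libraries and 415 and 474 CPM in DMSO libraries at 14 hpf. ContigAmph7979 increased far less with SU5402 than with DMSO. At 14 hpf it had 3.02 and 1.69 CPM in SU5402 libraries, against 54.8 and 64.7 CPM in DMSO libraries. At 8 hpf it had 1.15 and 1.14 CPM with SU5402 and 1.36 and 1.07 CPM with DMSO. Its ratio of SU5402 to DMSO, 0.0395, was lower than that of every other member except ContigAmph69172, at 0.0391, and the value of ContigAmph69172 rests on DMSO libraries with 202 and 10.4 CPM. ContigAmph24013 had 19.8 and 19.4 CPM in SU5402 libraries at 14 hpf and 87.5 and 81.3 CPM in DMSO libraries. Its DMSO mean at 14 hpf was 194 times that at 8 hpf, which was 0.434 CPM.

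Members near the limits of the rule differed little from contigs just outside it. ContigAmph27246 was just inside the limit on level with 10.1 CPM and ContigAmph15099 just outside with 9.94 CPM. For the rise in DMSO embryos the values were 4.14-fold for ContigAmph26363 inside and 3.99-fold for ContigAmph12094 outside. The higher SU5402 library at 14 hpf was 0.499 times the lower DMSO library for ContigAmph8087 inside, and 0.5003 times for ContigAmph23612 outside. At 8 hpf the SU5402 mean was 0.806 times the DMSO mean for ContigAmph3623 inside and 0.777 times for ContigAmph16309 outside. With CPM scaled by the TMM factors of the fit of all 24 libraries the rule gave 125 members, of which 107 were among the 130. Leaving out any 14 hpf library enlarged the set, as the condition on the higher SU5402 and the lower DMSO library then loosens. Without DMSO replicate 1 the rule gave 199 members, of which 118 were among the 130. Without DMSO replicate 2 it gave 169, of which 125 were among them. Without SU5402 replicate 1 or 2 it gave 164 or 175, and all 130 were kept.

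The 11 hpf libraries, which the rule did not use, show when the members increased. In DMSO embryos the members had reached a median of 4.93% of their 8 to 14 hpf increase by 11 hpf. By that time 88 members had reached under 10% of it, 40 between 10% and 50%, and 2 at least 50%. All 8 members with distant replicates were in the first class, which held 80 members without them. Among the other risers 101 of 1819, or 5.55%, had reached under 10%, and the median was 43.7%. The members were thus later than the other risers in DMSO embryos. The 11 hpf libraries were made with more PCR cycles, per the labels' protocols, and were shallower than those of 8 and 14 hpf, so stage and library preparation cannot be told apart in this share. It is a description, since both sets were chosen on the DMSO level at 14 hpf that enters the share.

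**Figure D2:**
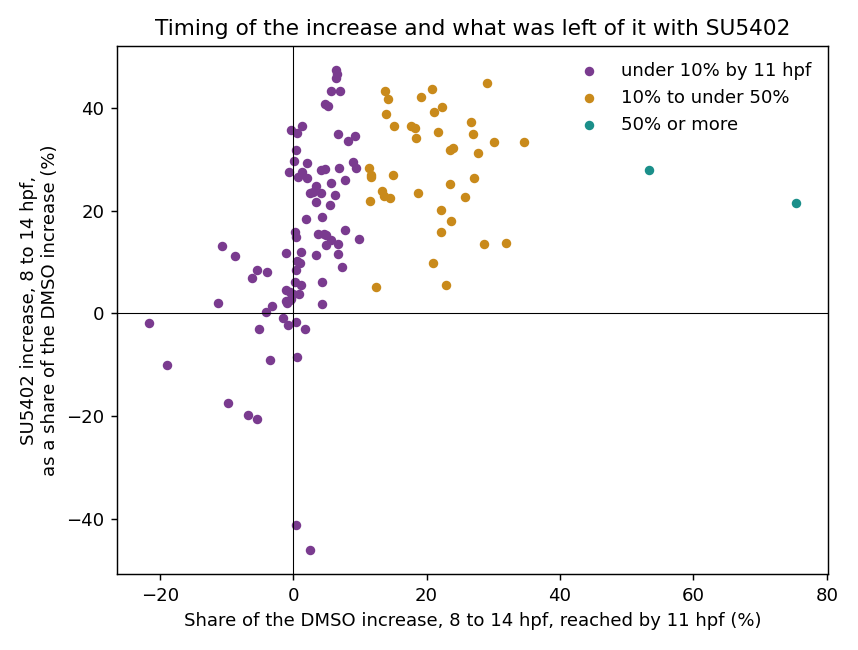
Each point is 1 of the 130 contigs. The horizontal axis gives the share of the 8 to 14 hpf increase in DMSO embryos that was reached by 11 hpf (%), and the vertical axis gives the 8 to 14 hpf increase in SU5402 embryos as a share of that in DMSO embryos (%). Most points lie at low values on the horizontal axis, where 88 contigs are under 10%, and on the vertical axis they stay below 47.4%.

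SU5402 was compared with DMSO at 11 hpf, after 6 h of exposure. The 4 libraries compared played no part in the choice of members. The filter, the scaling and the spread of the fit rest on all 12 early libraries, however, 8 of which the rule used. Of the 130 members 60 fell and 5 rose at an adjusted p under 0.05 (edgeR quasi-likelihood test on the 12 early libraries, Benjamini-Hochberg over 77193 contigs). Over all contigs tested 8.94% fell and 13.9% rose. More than 2-fold falls were called for 53 members, against 4.18% of all contigs, and more than 2-fold rises for 5, against 12.8%. The median log2 fold change was -0.86 over the members and 0.06 over all contigs. Falls were not particular to the set: among the other risers 1182 of 1819, or 65.0%, fell, with a median of -0.93. Of these other risers 745 fell more than 2-fold. The median DMSO mean at 11 hpf was 2.78 CPM over the members and 15.6 CPM over the other risers. What this difference in level did to the share called was not tested. Both SU5402 libraries were at most 0.5 times both DMSO libraries for 25.4% of the members and 18.3% of the other risers. Both SU5402 libraries lay below both DMSO libraries for 76 members and for 40.2% of the 19601 contigs with a mean of 5 CPM or more.

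The count at 11 hpf depended on the libraries in the fit. Without either SU5402 library of 11 hpf 39 members fell, and a fit of only the 4 libraries compared, in which 116 members passed the filter, gave 32 fallen and 3 risen. The count of risen members was 0 without DMSO replicate 2 of 11 hpf and 10 without SU5402 replicate 1. Scaling by abundant contigs moved the median of the log2 fold changes over the whole table to 0.31. With that scaling 3608 contigs fell and 14172 rose, against 6903 and 10694 in the fit above, and 48 members fell and 6 rose.

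ContigAmph24013 and ContigAmph22225 had the smallest p among members that fell at 11 hpf. ContigAmph24013 had 2.75 and 2.89 CPM in SU5402 libraries and 12.6 and 12.7 CPM in DMSO libraries, with a log2 fold change of -2.28 (SE 0.16) and an adjusted p of 2.86e-05. ContigAmph22225 had 3.54 and 3.49 CPM in SU5402 libraries and 38.8 and 26.8 CPM in DMSO libraries, with a log2 fold change of -3.34 (SE 0.24) and an adjusted p of 2.98e-05. The groups did not overlap for either. ContigAmph22225 was also the member that had reached the largest share, 75.3%, of its DMSO increase by 11 hpf.

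The 2 members with the smallest p among those that rose at 11 hpf were also higher with SU5402 at 8 hpf. ContigAmph4223 had 4.65 and 3.56 CPM in SU5402 libraries at 11 hpf and 1.58 and 1.27 CPM in DMSO libraries, with a log2 fold change of 1.42 (SE 0.26) and an adjusted p of 0.00388. At 8 hpf it had 14.8 and 11.5 CPM in SU5402 libraries and 0.884 and 0.835 CPM in DMSO libraries. In SU5402 embryos of the early series its level was therefore highest at 8 hpf and lower at 14 hpf, with 3.23 and 2.98 CPM, while DMSO libraries had 20.7 and 24.6 CPM at 14 hpf. ContigAmph6205 had 5.60 and 3.02 CPM in SU5402 libraries at 11 hpf and 1.12 and 0.443 CPM in DMSO libraries, with a log2 fold change of 2.38 (SE 0.47) and an adjusted p of 0.00551. At 8 hpf it had 4.80 and 3.74 CPM in SU5402 libraries and 1.47 and 1.14 CPM in DMSO libraries, and at 14 hpf 2.09 and 2.42 CPM with SU5402 against 9.22 and 13.0 CPM with DMSO. Both missed the threshold without DMSO replicate 2 of 11 hpf, with adjusted p-values of 0.0502 and 0.0539 by the same test.

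Among the 14 members whose SU5402 level was lower at 14 hpf than at 8 hpf, 1 fell and 3 rose at 11 hpf, where 8.94% of all contigs fell and 13.9% rose. Among the 23 at 1 to under 2 times their 8 hpf level 6 fell and 1 rose, and among the 93 that at least doubled with SU5402 53 fell and 1 rose. By timing, 25 of the 88 members with under 10% of their DMSO increase by 11 hpf fell at 11 hpf, and 33 of the 40 members with 10% to under 50%. The timing classes were made with the same DMSO libraries of 11 hpf, so these last counts are a description.

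In the late series the members were expressed at higher levels, also with SU5402. The median of the mean level over members was 31.5 CPM in SU5402 embryos and 44.0 CPM in DMSO embryos at 18.5 hpf, 35.6 CPM with SU5402 and 41.3 CPM with DMSO at 21.5 hpf, and 33.5 CPM with SU5402 and 37.6 CPM with DMSO at 24.5 hpf. The members' share of the reads was 0.877% to 1.05% in the late SU5402 libraries and 1.21% to 1.26% in the late DMSO libraries. In late DMSO embryos 98 members at 18.5 hpf, 87 at 21.5 hpf and 87 at 24.5 hpf lay above their DMSO level at 14 hpf. Late SU5402 embryos were above that same level for 80 members at 18.5 hpf, 77 at 21.5 hpf and 79 at 24.5 hpf. Of the other risers 42.1% were above their 14 hpf level in DMSO embryos at 18.5 hpf and 36.3% at 24.5 hpf. Levels of the 2 series were set side by side without a test, since they come from separate exposures. They are CPM over library totals. In the fit of all 24 libraries the TMM factors were 0.909 and 0.953 for the DMSO libraries of 14 hpf and 1.04 to 1.19 for the late DMSO libraries. Scaled by these factors, late levels would be lower relative to those of 14 hpf, and the counts were not made that way. The highest DMSO mean was at 14 hpf for 25 members, at 18.5 hpf for 51, at 21.5 hpf for 22 and at 24.5 hpf for 32.

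Within the late DMSO embryos, 24.5 hpf was compared with 18.5 hpf to see how the members went on without the inhibitor. Of the 130 members 63 fell and 30 rose between these stages, against 16.0% and 17.5% of the 73087 contigs tested (edgeR quasi-likelihood test on the 12 late libraries, adjusted p under 0.05). These were 48.5% and 23.1% of the members, while 39.1% of the other risers fell and 30.6% rose. More than 2-fold falls were called for 19 members and rises for 6, against 4.18% and 8.79% of all contigs. Without the 8 members with distant replicates 56 of 122 fell, 12 of them more than 2-fold, and 30 rose. The median log2 fold change was -0.21 over the members, -0.02 over all contigs and -0.07 over the other risers. A fit of all 24 libraries called 32 fallen and 21 risen members, while 4992 of its 87512 contigs fell and 7142 rose. ContigAmph7469 had 271 and 275 CPM at 24.5 hpf and 783 and 801 CPM at 18.5 hpf, with a log2 fold change of -1.63 (SE 0.05) and an adjusted p of 7.33e-19. ContigAmph8334 fell to 562 and 548 CPM at 24.5 hpf, against 1364 and 1373 CPM at 18.5 hpf. ContigAmph7979, among the lowest members with SU5402 at 14 hpf, rose in late DMSO embryos, with 2132 and 2324 CPM at 24.5 hpf and 724 and 694 CPM at 18.5 hpf, at a log2 fold change of 1.56 (SE 0.06) and an adjusted p of 9.68e-18. ContigAmph1103 had 282 and 289 CPM at 24.5 hpf and 91.1 and 96.6 CPM at 18.5 hpf.

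Exposure from 15.5 hpf tested SU5402 on embryos past the stage at which the members had reached their DMSO level of 14 hpf. At 18.5 hpf, after 3 h, 89 of the 130 members fell and 5 rose, against 14.0% and 16.4% of the 73087 contigs tested (edgeR quasi-likelihood test on the 12 late libraries, adjusted p under 0.05). Among the other risers 30.2% fell and 21.5% rose. The median log2 fold change was -0.41 over the members, 0.00 over all contigs and -0.05 over the other risers. The falls were mostly small: 18 were more than 2-fold, against 3.3% of all contigs. The 5 rises were all under 2-fold, while 9.57% of all contigs rose by more. Without the 8 members with distant replicates, all of which were called fallen at this time, 81 of 122 fell, 10 of them more than 2-fold. The count of risen members was 8 without DMSO replicate 1 of 18.5 hpf and 3 without DMSO replicate 2 or SU5402 replicate 2. Both SU5402 libraries lay below both DMSO libraries for 97 members, against 40.5% of the contigs with a mean of 5 CPM or more.

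At 21.5 hpf, after 6 h, 78 members fell and 12 rose, against 10.6% and 11.0% of all contigs tested by the same fit. Among the other risers 37.6% fell and 10.0% rose. The median log2 fold change was -0.39 over the members, 0.02 over all contigs and -0.19 over the other risers. More than 2-fold falls were called for 18 members, against 3.7% of all contigs. The 8 members with distant replicates made up 8 of the 12 risen members and all 8 that rose more than 2-fold, against 6.05% of all contigs, and without them 78 of 122 fell and 4 rose. Over all 130 members, 4 rose without SU5402 replicate 1 of 21.5 hpf and 3 without DMSO replicate 1. Both SU5402 libraries lay below both DMSO libraries for 87 members, against 35.1% of the contigs with a mean of 5 CPM or more.

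At 24.5 hpf, after 9 h, 57 members fell and 17 rose, against 11.2% and 11.7% of all contigs tested by the same fit. Among the other risers 39.4% fell and 13.8% rose, so the members' share of 43.8% fallen was near that of the other risers. The median log2 fold change was -0.23 over the members, 0.01 over all contigs and -0.16 over the other risers. More than 2-fold falls were called for 13 members, against 3.4% of all contigs, and none of the 8 members with distant replicates was called. The 17 rises were all under 2-fold, while 4.92% of all contigs rose by more. Both SU5402 libraries lay below both DMSO libraries for 71 members, against 29.0% of the contigs with a mean of 5 CPM or more. The late counts depended on the libraries in the fit, for the members and for all contigs. A fit of all 24 libraries, which also changed the filter, the scaling factors and the shared spread, called 43 fallen and 1 risen member at 18.5 hpf, 47 and 1 at 21.5 hpf, and 24 and 4 at 24.5 hpf. Of its 87512 contigs 4175 fell at 18.5 hpf, 3368 at 21.5 hpf and 2628 at 24.5 hpf. In the late fit 10235, 7774 and 8196 of 73087 contigs fell at the same times. Rises in the fit of all 24 libraries were 7515, 3845 and 3218 contigs.

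**Figure D3:**
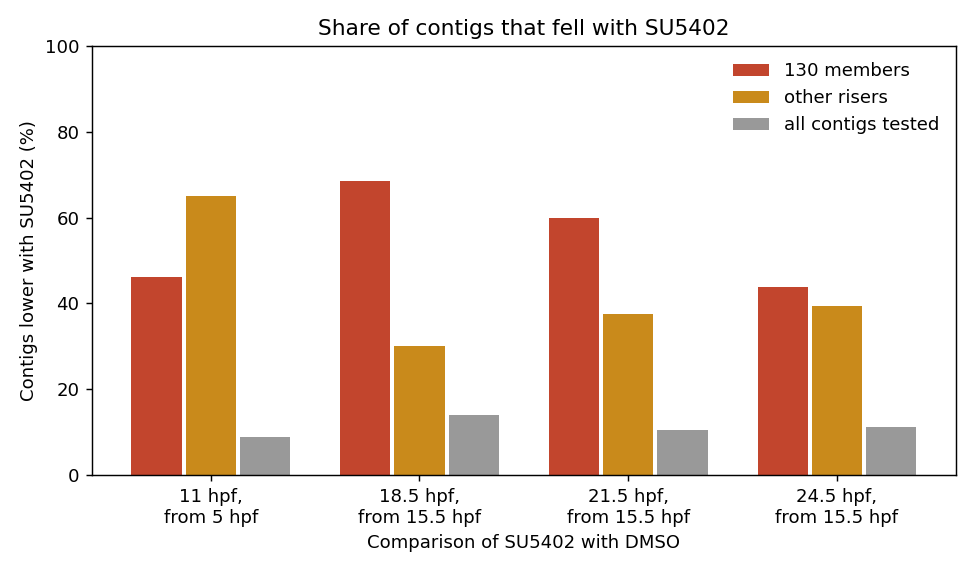
Share of contigs that fell with SU5402 (%, adjusted p under 0.05) among the 130 members, the other risers and all contigs tested, in the 4 comparisons whose libraries the rule did not use. The members are below the other risers at 11 hpf, with 46.2% against 65.0%, and above them at 18.5 hpf, with 68.5% against 30.2%. At 11 hpf the members had lower levels, with a median DMSO mean of 2.78 CPM against 15.6 CPM. More than 2-fold falls were called there for 53 of 130 members and 745 of 1819 other risers.

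**Figure D4:**
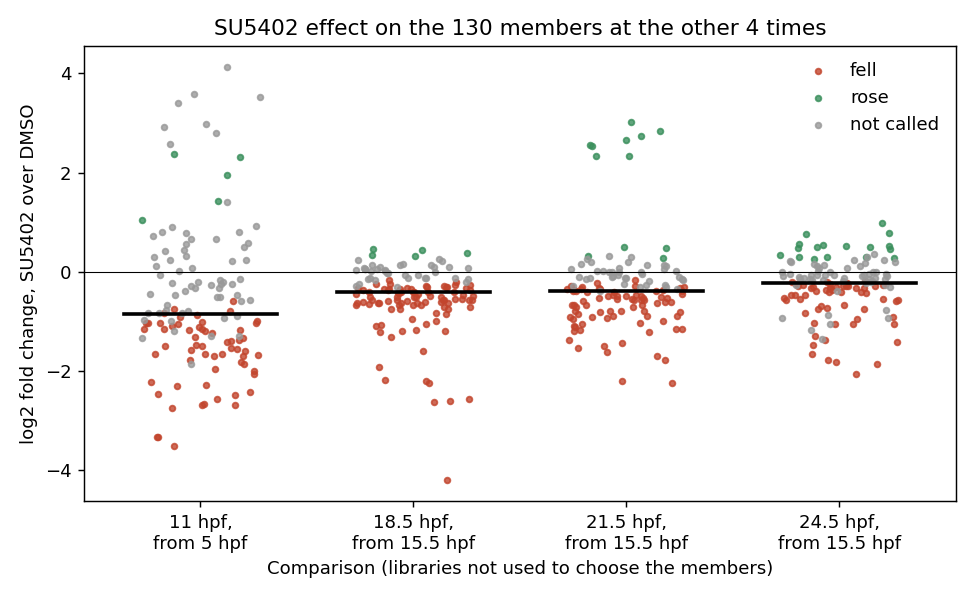
Log2 fold change of SU5402 over DMSO for each of the 130 contigs in the same 4 comparisons, with fallen, risen and uncalled contigs in separate colours and a black line at the median. The spread is widest at 11 hpf, and the cluster of risen contigs above a log2 fold change of 2 at 21.5 hpf consists of the 8 members whose replicates lie apart.

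Many members fell at more than 1 late time. At least 1 late fall was called for 103 members, against 23.0% of all contigs tested. Falls at all 3 late times were called for 46 members, against 3.57% of all contigs tested and 12.8% of the other risers, and none of the 46 was among the 8 with distant replicates. Of the 89 members that fell at 18.5 hpf 47, or 52.8%, also fell at 24.5 hpf, against 31.7% of the 10235 contigs that fell at 18.5 hpf and 46.7% of the other risers that did. Another 37 of the 89, or 41.6%, were not called at 24.5 hpf, against 64.2% of those contigs, and 5, or 5.62%, rose, against 4.04%. The 3 late comparisons come from 1 fit but use separate libraries, and the differences between them were not tested. No call was made at any late time for 14 members, against 54.7% of all contigs. The 14 members whose SU5402 level was lower at 14 hpf than at 8 hpf all fell at 18.5 hpf, 12 of them fell at 21.5 hpf and 9 at 24.5 hpf. Without the 1 of them with distant replicates the counts were 13 of 13, 12 and 9. Among the 88 members with under 10% of their DMSO increase by 11 hpf, 64 fell and 1 rose at 18.5 hpf. At 21.5 hpf 56 of them fell and 12 rose, and at 24.5 hpf 38 fell and 13 rose. The 8 members with distant replicates, all in this class, were among the 64 and among the 12. Of the 40 members of intermediate timing 24 fell and 3 rose at 18.5 hpf. The counts were 20 and 0 at 21.5 hpf and 18 and 4 at 24.5 hpf. Over all contigs tested 14.0% fell and 16.4% rose at 18.5 hpf, 10.6% and 11.0% at 21.5 hpf, and 11.2% and 11.7% at 24.5 hpf.

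ContigAmph23193 had the smallest p among fallen members at all 3 late times. It had 269 and 260 CPM in SU5402 libraries and 615 and 689 CPM in DMSO libraries at 18.5 hpf, with a log2 fold change of -1.33 (SE 0.06) and an adjusted p of 1.26e-15. At 21.5 hpf it had 135 and 137 CPM in SU5402 libraries and 606 and 587 CPM in DMSO libraries, with a log2 fold change of -2.21 (SE 0.06) and an adjusted p of 2.12e-19. At 24.5 hpf the values were 184 and 168 CPM with SU5402 and 581 and 613 CPM with DMSO, with a log2 fold change of -1.82 (SE 0.06) and an adjusted p of 7.92e-18. The groups did not overlap at any late time. At 14 hpf it was still low, with 4.22 and 4.91 CPM in SU5402 libraries and 42.0 and 83.3 CPM in DMSO libraries, and its call at 11 hpf did not pass the test, with an adjusted p of 0.149 by edgeR on the early libraries.

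ContigAmph8342, one of the most abundant members, was the next by p at 21.5 and 24.5 hpf. It had 183 and 178 CPM in SU5402 libraries and 497 and 478 CPM in DMSO libraries at 21.5 hpf, with a log2 fold change of -1.51 (SE 0.07) and an adjusted p of 7.93e-15. At 24.5 hpf it had 220 and 201 CPM with SU5402 and 507 and 550 CPM with DMSO, and the log2 fold change was -1.39 (SE 0.07) with an adjusted p of 1.87e-14. It had already fallen at 18.5 hpf, by 0.37 on the log2 scale, with 674 and 573 CPM in SU5402 libraries against 768 and 814 CPM in DMSO libraries. ContigAmph25982, the next by p at 18.5 hpf, had 33.1 and 37.1 CPM in SU5402 libraries and 77.8 and 82.2 CPM in DMSO libraries there, with a log2 fold change of -1.21 (SE 0.07) and an adjusted p of 4.83e-13. At 24.5 hpf its values were 76.8 and 68.4 CPM with SU5402 and 80.0 and 76.8 CPM with DMSO, and it was not called, with an adjusted p of 0.0906 by the same edgeR fit.

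At least 1 late rise was called for 30 members, among them the 8 with distant replicates, against 24.4% of all contigs tested. ContigAmph24013, which had fallen at 11 hpf, had 57.7 and 66.3 CPM in SU5402 libraries and 44.2 and 46.1 CPM in DMSO libraries at 18.5 hpf, with a log2 fold change of 0.43 (SE 0.09) and an adjusted p of 0.00062. At 24.5 hpf it was lower with SU5402, with 57.5 and 50.4 CPM against 98.8 and 75.8 CPM with DMSO, and had a log2 fold change of -0.75 (SE 0.09) and an adjusted p of 3.86e-07. ContigAmph22144 showed the same order, with log2 fold changes of 0.45 ± 0.11 at 18.5 hpf and -0.69 ± 0.11 at 24.5 hpf (SE). The rise of ContigAmph22144 missed the threshold in the fit of all 24 libraries, with an adjusted p of 0.0674 by edgeR. At 21.5 hpf ContigAmph3740 had 34.1 and 35.4 CPM in SU5402 libraries and 23.5 and 23.4 CPM in DMSO libraries, and ContigAmph10075 had 26.5 and 27.3 CPM with SU5402 against 17.6 and 19.4 CPM with DMSO. The call of ContigAmph10075 was lost in the fit of all 24 libraries, with an adjusted p of 0.39 by edgeR. ContigAmph22392 was at 195 and 203 CPM in SU5402 libraries and 111 and 110 CPM in DMSO libraries at 24.5 hpf, with a log2 fold change of 0.79 (SE 0.06) and an adjusted p of 1.65e-10. ContigAmph22973 had 17.5 and 15.5 CPM with SU5402 and 9.05 and 9.77 CPM with DMSO at that time. The rises were below 2-fold in all 6 of these comparisons.

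**Figure D5:**
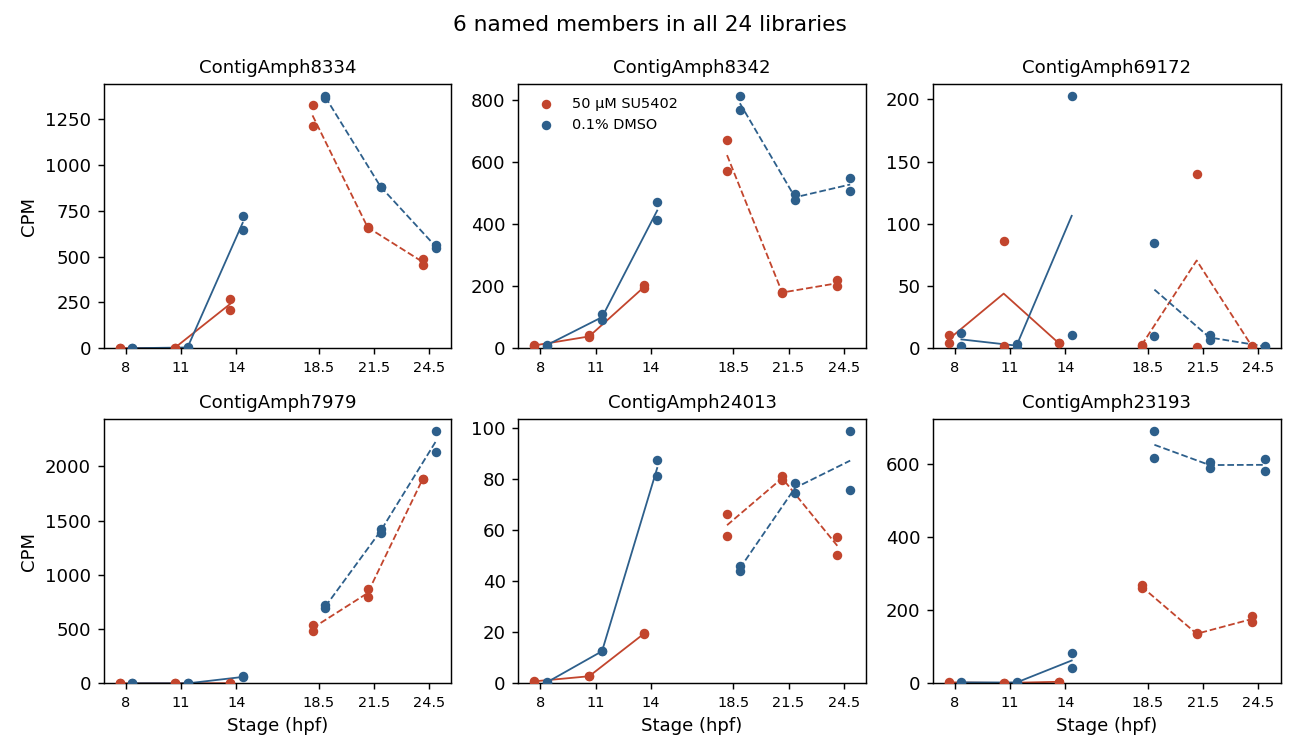
CPM of 6 named contigs in all 24 libraries by hours post fertilization, with SU5402 libraries drawn left of DMSO libraries at each stage, points for libraries and lines through the means of each series (solid early, dashed late). ContigAmph23193 stays lower with SU5402 at all late stages, ContigAmph24013 changes order between 18.5 and 24.5 hpf, and in ContigAmph69172 single libraries stand apart from their replicates.

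The effect of 6 h of SU5402 was compared between the late and the early series in 1 fit of all 24 libraries over 87512 contigs. The late effect minus the early effect was above 0 for 37 members and below 0 for 14 (edgeR quasi-likelihood test of the interaction, adjusted p under 0.05), against 6.11% and 4.09% of all contigs. Differences of more than 2-fold were called above 0 for 35 and below 0 for 12 members, against 3.7% and 3.65%. Among the other risers it was above 0 for 47.3% and below 0 for 2.14%. The median difference on the log2 scale was 0.44 over the members, 0.08 over all contigs and 0.75 over the other risers. The split depended on scaling: with factors from abundant contigs the median of all contigs moved to -0.21, and the counts were 26 members above 0 and 17 below 0. The shared spread of that fit, 18.3%, was too narrow for the early and too wide for the late replicates, and a fit with a variance weight for each series gave 25 members above 0 and 9 below 0. Without SU5402 replicate 1 of 21.5 hpf 9 members were below 0. The stage of the embryos and the separate exposure of the 2 series cannot be told apart in this comparison.

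ContigAmph24013 and ContigAmph22225 had the smallest p among members above 0, with log2 differences of 2.35 ± 0.20 and 2.74 ± 0.24 (SE; the adjusted p by edgeR was 7.56e-07 and 1.23e-06). At 21.5 hpf ContigAmph24013 had 81.1 and 79.8 CPM in SU5402 libraries and 74.7 and 78.6 CPM in DMSO libraries, while ContigAmph22225 had 49.1 and 50.3 CPM with SU5402 against 75.8 and 75 CPM with DMSO. Both were far lower with SU5402 at 11 hpf. ContigAmph4223 and ContigAmph6205 had the smallest p below 0, with log2 differences of -2.03 ± 0.24 and -3.73 ± 0.44 (SE; the adjusted p by edgeR was 2.19e-05 for both). At 21.5 hpf ContigAmph4223 had 74.7 and 78.3 CPM in SU5402 libraries and 116 and 115 CPM in DMSO libraries. ContigAmph6205 had 29.9 and 36.2 CPM with SU5402 and 84.6 and 79.8 CPM with DMSO at that time. These 2 members were thus higher with SU5402 at 8 and 11 hpf and lower with it at all 3 late times. Their lower level with SU5402 at 14 hpf was fixed by the rule.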

How the data were processed

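The deposited table holds raw read counts per transcript contig for 24 libraries, made by the authors. The submitters' processing notes list BWA 0.6.1. The assembly and the counting rule were not given in the sources used here. Libraries were made from poly(A) RNA with random primers and without strand marking, with more PCR cycles for the 6 h libraries, per the labels' protocols. No column was left unused. Library totals were 10866511 to 39988564 reads.

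CPM in the text are counts over column totals, as in the rule, while fold changes come from fits with TMM factors. edgeR 4.0.16 in R 4.3.3 was used with filterByExpr and 1 coefficient per group: on the 12 early libraries (77193 contigs) and on the 12 late libraries (73087 contigs), with 6 residual degrees of freedom each, and on all 24 libraries (87512 contigs, 12 degrees of freedom) for the difference between series. At least 99.76% of the reads of a library were kept. Tests were two-sided with Benjamini-Hochberg adjustment over all contigs at 0.05, and fallen or risen means past that threshold. The SE is the absolute log2 fold change over the square root of F. The script was tested on simulated data.

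The members, classes and tests were chosen with earlier results of these data known. Without gene names, at most 2 members per direction and comparison are named, those with the smallest p, besides the members with the highest levels, the lowest SU5402 ratios, the largest rises from at least 10 reads per library, and those at the limits of the rule. Alternatives were other scalings and filters, DESeq2 1.42.0, limma 3.58.1, other sets of libraries, a replicate block and leaving out each library.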

Additional observations from a re-analysis of the deposited data

Results flagged for a closer look

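The effect of 6 h of SU5402 differed between the 2 series by the interaction test. It was higher in the late than in the early series for 37 members and lower for 14. Over all contigs it was higher for 6.11% and lower for 4.09%, and over the other risers for 47.3% and 2.14%. With factors from abundant contigs it was higher for 26 members and lower for 17. ContigAmph4223 and ContigAmph6205 were lower in the late series, with differences of -2.03 and -3.73 on the log2 scale. ContigAmph24013 and ContigAmph22225 were higher in the late series, with differences of 2.35 and 2.74 on the log2 scale. With 2 libraries per group no sample was tested as an outlier.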

How the results depend on the processing

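Of the values of named members under alternatives, 327 of 332 kept their direction and their side of the threshold, 5 kept the direction but missed the threshold, and 0 reversed. In the comparison at 11 hpf the 4 libraries alone gave 32 fallen and 3 risen members, while 3160 of 55295 contigs fell and 7170 rose. One fit of all 24 libraries gave 43 fallen and 1 risen at 18.5 hpf, 47 and 1 at 21.5 hpf, 24 and 4 at 24.5 hpf, and 32 fallen between DMSO embryos of 24.5 and 18.5 hpf. Over its 87512 contigs 4175, 3368 and 2628 fell at 18.5, 21.5 and 24.5 hpf, and 4992 between the DMSO embryos. Factors from abundant contigs gave 8 risen at 18.5 hpf, and the DESeq2 Wald test gave 3 risen at 21.5 hpf, where leaving out the 8 members with distant replicates, chosen after seeing the data, gave 4. The variance weight per series gave 9 members below 0 for the difference between series. A limit of 0.25 on SU5402 over DMSO gave 30 members, and dropping the 8 hpf condition gave 203. Leaving out each library gave 39 to 53 fallen and 0 to 10 risen at 11 hpf, 80 to 83 and 3 to 8 at 18.5 hpf, 68 to 76 and 3 to 11 at 21.5 hpf, 45 to 50 and 13 to 19 at 24.5 hpf, 54 to 63 and 28 to 31 in late DMSO embryos, 9 to 14 below and 29 to 37 above 0 for the difference between series, and 125 to 199 members.

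The labels do not say what a replicate number marks. As a hint from the data, deviations of same-numbered libraries correlated at 0.519 to 0.777 in 10 pairs of early groups, at -0.727 to -0.553 in the 5 pairs with SU5402 embryos of 14 hpf, and at -0.247 to 0.0922 in the 15 late pairs. With a replicate block 63 members fell and 6 rose at 11 hpf, 89 and 5 at 18.5 hpf, 79 and 12 at 21.5 hpf, 55 and 18 at 24.5 hpf, 65 and 30 in late DMSO embryos, and 15 were below and 36 above 0 for the difference between series. A replicate block with the numbers of SU5402 embryos of 14 hpf crossed, chosen after seeing the data, gave 69 fallen and 13 risen members at 11 hpf, where 11990 of all contigs fell and 16153 rose, against 6903 and 10694 without a block. For the difference between series it gave 18 members below and 42 above 0, with 5231 and 8425 of all contigs, against 3579 and 5350 without a block. The cause of these shifts was not tested. At 8 hpf, low reads limit the ratios of 34 members.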
